A study of Botryllus schlosseri with 12 samples.

Results

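A set of 183 contigs lost most of their reads within 6 h of injury in *Botryllus schlosseri* and stayed low up to 24 h post-injury (hpi), among 32561 contigs measured. They were chosen by their own values. For each contig the count in a library was divided by the library total and scaled to CPM, counts for every 1000000 counts of the library, not divided by contig length, and M0, M6, M18 and M24 are the means of log2(CPM + 1) over the 3 libraries of each time point. A member has a mean CPM over the 12 libraries from 5 to under 500, an M0 at least 2.5 above M6, a mean of M18 and M24 within 1 of M6, and every 0 hpi library above every later library. The 183 members are 0.705% of the 25956 contigs in the same CPM range.

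*B. schlosseri* is a colonial tunicate whose zooids are embedded in a tunic and share a blood vasculature. After surgical removal of the zooids and buds, a colony can form a complete new body, a process called whole-body regeneration. The 12 libraries came from subclones of 1 isogenic strain grown on separate slides. At colony stage D all zooids and buds were cut out, and the tissue left over was frozen at once (0 hpi) or kept in filtered seawater until 6, 18 or 24 hpi, with 3 subclones at each time. No intact colony was among them, so 0 hpi stands for tissue directly after surgery and includes whatever fragments the surgery left behind. RNA was extracted from all 12 samples in a single round. Bulk RNA of this kind cannot tell fewer cells of a type from less RNA per cell.

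When a transcript is no longer made, its level falls at the speed of its decay, and animal transcripts differ widely in that speed. Decay rates were not measured here. Every identifier below carries the prefix TRINITY_ in the deposited table. In such an identifier, "c" numbers a component of the assembly graph, "g" a Trinity gene within it, "i" a transcript of that gene and "p" a reading frame predicted on that transcript. No gene names were used here, so members are described by identifier and value, with no function given.

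At 0 hpi the summed members took 1.82%, 1.88% and 1.20% of the counts of replicates 1, 2 and 3. At 6 hpi they took 0.0901%, 0.106% and 0.0976%, at 18 hpi 0.0884%, 0.0602% and 0.0641%, and at 24 hpi 0.0808%, 0.0801% and 0.0960%. The 3 libraries of 0 hpi stand far above all 9 later ones, as the rule required of each contig, and the 9 later ones lie close together. The median member had a mean of 44.7 CPM at 0 hpi (range 15.4 to 993.5), 2.26 CPM at 6 hpi (0 to 69.5), 1.61 CPM at 18 hpi (0 to 45.6) and 1.65 CPM at 24 hpi (0 to 53.0).

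**Figure D1:**
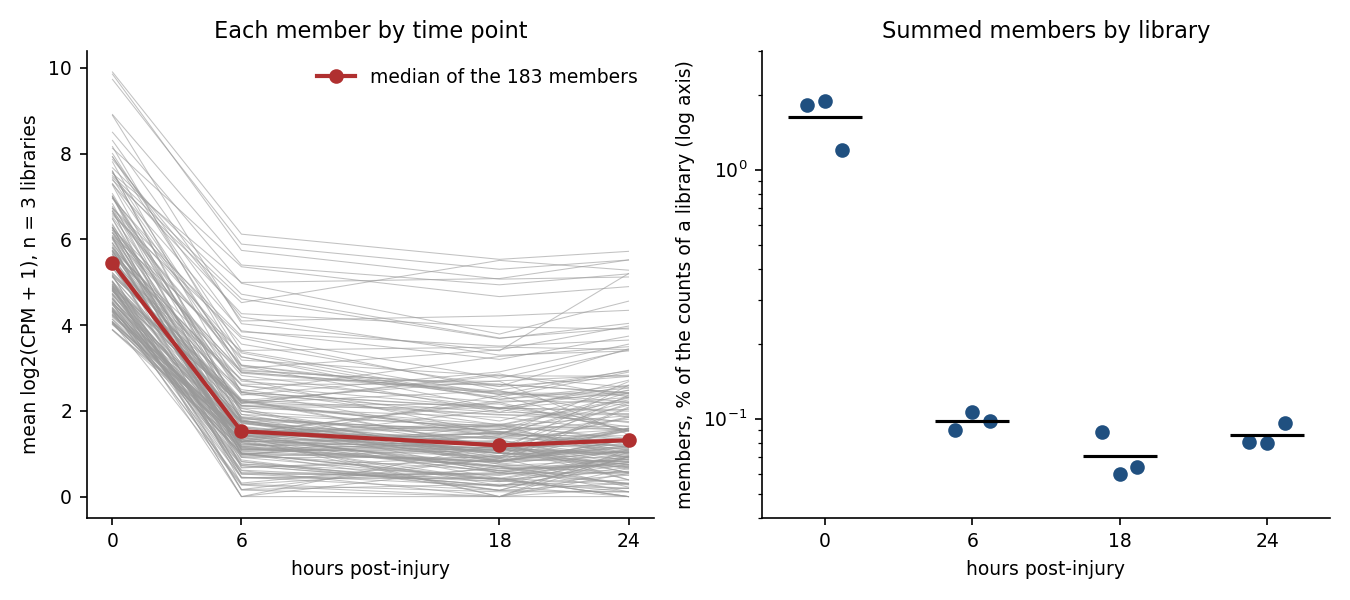
Left, mean log2(CPM + 1) of each member over 3 libraries (grey lines) and the median of the 183 members (red) against hours post-injury. Right, the summed members as a percent of the counts of each library on a log axis (points, libraries; bars, means): 1.20% to 1.88% at 0 hpi and 0.0602% to 0.106% in the 9 later libraries.

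"Shut off" holds for few members in the strict sense. Of the 183, 138 kept a count in each of the 3 libraries of 6 hpi and 95 in each of the 9 later libraries. Only 3 had no count at 6 hpi, and 1 of these, DN17289_c3_g2_i16.p4, had none in any later library. That contig was singled out after its values were seen. It had 37.7, 37.6 and 16.6 CPM at 0 hpi, and its summed count at 0 hpi was at least 77.2-fold higher than a floor of 3 counts over the libraries of 6 hpi. For the other two without a count at 6 hpi the same bound is 81.6-fold and 56.7-fold, and both had counts again at 18 and 24 hpi.

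The level left at 6 hpi varied from member to member. The median member kept 5.83% of its mean CPM of 0 hpi, with quartiles of 2.53% and 9.80% and a highest value of 17.0%. At 18 hpi the median was 3.63% and at 24 hpi 4.34%. At 6 hpi 10 members were under 1% of their 0 hpi level and 45 were at 10% or more. In absolute terms 30 members had a mean under 1 CPM at 6 hpi, 110 had 1 to under 5 CPM and 43 had 5 CPM or more, so the largest class was reduced to a low, countable level. In 49 members the 3 libraries of 6 hpi held at most 10 counts together, which limits the precision of a residual level in those members.

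The size of the fall was bounded by the rule's own limit and differed between starting levels, without a steady trend. M0 − M6 had a median of 3.57 and a range of 2.51 to 5.99 on the log2(CPM + 1) scale, while the median contig in the CPM range had −0.02. The 22 members under 20 CPM at 0 hpi kept a median of 10.96%, with a lowest value of 5.57%. At that starting level a mean of 5 CPM over the 12 libraries needs counts after 0 hpi. A contig of that level with no later count therefore could not be a member. The 78 members from 20 to under 50 CPM kept 5.82%, the 41 from 50 to under 100 CPM kept 3.84%, the 24 from 100 to under 200 CPM kept 4.07% and the 18 at 200 CPM or more kept 5.20%. These percentages use no pseudocount, whereas on the scale of M0 − M6 the pseudocount of 1 CPM compresses a fall among weak contigs. Expressed as a constant rate over the first 6 h, the fall of the 180 members with a count at 6 hpi equals a halving every 1.48 h in the median, with quartiles of 1.15 and 1.80 h, a shortest value of 0.724 h and a longest of 2.34 h. This restates the 2 measured points and was not a fit to a decay course.

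The member with the largest fall was DN7961_c0_g1_i1.p1. It had 2.03, 0 and 0.371 CPM at 6 hpi, against 217, 163.8 and 28.9 CPM at 0 hpi. At 18 hpi it had 1.42, 1.32 and 0 CPM, and at 24 hpi 1.58, 0.963 and 2.05 CPM. Replicate 3 of 0 hpi was 7.52-fold below replicate 1, yet remained above all 9 later libraries, the highest of which is a 24 hpi library. The second reading frame on this transcript, also a member, had 148.2, 88.2 and 15.01 CPM at 0 hpi, the same order of libraries. At 18 hpi its order was the reverse of the first frame's, with 0, 0.264 and 2.06 CPM, from at most 6 counts in a library.

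The member with the highest CPM at 0 hpi was DN17382_c0_g1_i5.p1. It had 57.0, 84.9 and 66.5 CPM at 6 hpi, against 1214, 1132 and 634.4 CPM at 0 hpi. At 18 hpi it had 45.2, 51.3 and 40.0 CPM, and at 24 hpi 37.2, 62.1 and 59.5 CPM. Its mean at 6 hpi, 69.5 ± 14.2 CPM (SD, n = 3), is 6.99% of its mean at 0 hpi, 993.5 ± 313.7 CPM (SD, n = 3).

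This contig belongs to a Trinity gene with 9 contigs, of which 7 are members. An 8th met every other condition but fell by a further 1.63 after 6 hpi. The 9th, under the CPM range, had a fall of only 0.39, and its 0 hpi libraries did not all exceed the later ones. Summed, the 7 members had 223.3, 305.6 and 274.1 CPM at 6 hpi, against 5110, 4510 and 2648 CPM at 0 hpi. They made up 28.0%, 24.0% and 22.1% of the summed members in the 3 libraries of 0 hpi. Kallisto can divide reads between similar contigs, and the estimates of these 7 are fractions, so they are not 7 separate observations.

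The edge of the set is a cut through a continuum. On M0 − M6 the members nearest the limit had 2.51 and 2.53, and the nearest contigs outside had 2.49 and 2.48. On the change after 6 hpi the members nearest the limits had −0.99 and 0.94, and the nearest outside had −1.004 and 1.02. On mean CPM the nearest inside had 5.05 and 5.05 and the nearest outside 4.99 and 4.99. No contig failed only the upper limit of 500 CPM, 61 failed only the lower limit, 11 failed only the separation of the libraries, and 44 had a fall from 2 to under 2.5 with all else met. In all, 243 contigs fell as far by 6 hpi with the other conditions kept. Of these, 183 are members, 48 went on falling by 1 or more and 12 came back by 1 or more, so contigs that came back were the smallest of the 3 groups. The floor of the scale also limits this split, since a contig with M6 under 1 cannot fall by a further 1. The 30 members with a mean under 1 CPM at 6 hpi are of this kind.

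**Figure D2:**
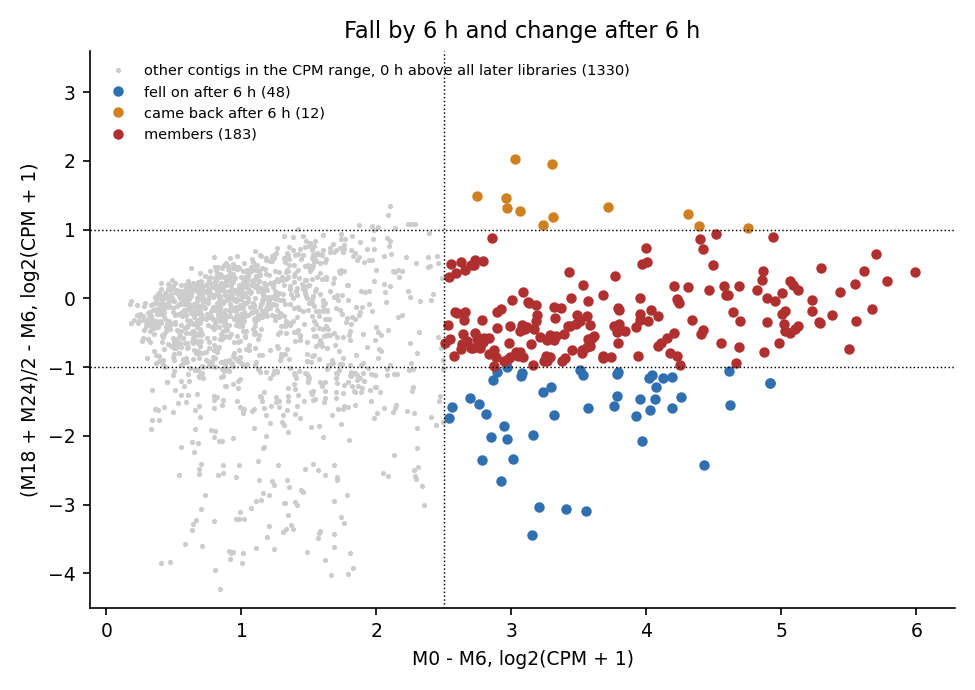
Change after 6 hpi, (M18 + M24)/2 − M6, against the fall by 6 hpi, M0 − M6, both on the log2(CPM + 1) scale, for contigs in the CPM range whose 0 hpi libraries all exceed every later library. Dotted lines are the limits of the rule; the 183 members (red) grade into the 48 contigs that fell on (blue), and 12 contigs came back (orange).

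Among members, 137 had a late mean under M6 and 45 above it, within the limit of 1 that the rule sets. The median change was −0.41 at 18 hpi and −0.31 at 24 hpi relative to 6 hpi, against a median of −0.37 for their mean. The changes after 6 hpi were thus small beside the fall, as the rule sets.

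The difference between 24 and 18 hpi is the only one between time points that the rule does not use, and it was tested with edgeR's quasi-likelihood test across all contigs, with Benjamini-Hochberg adjustment. A low-count filter left 182 of the 183 members among 31383 contigs tested. The member left out, DN19148_c0_g1_i1.p1, had 36.3, 50.6 and 1.44 CPM at 0 hpi and at most 0.743 CPM in any later library. Contigs were called where the log2 fold change exceeded 1 in size at an adjusted p under 0.05. No member was called higher, where 0.0223% of all contigs were, and none was called lower, where 0.00319% were. DESeq2 and limma-voom also called none.

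At an unadjusted p under 0.05, 14 members differed between 24 and 18 hpi, which is 7.69% of those tested against 7.02% of all contigs, and all 14 were higher at 24 hpi. This number rests on single libraries: it was 34, all higher, without replicate 1 of 18 hpi and 8, of which 6 were higher, without replicate 3 of 24 hpi. It was 20 with DESeq2, of which 19 were higher, and 4 with limma-voom, all higher. The share of all contigs under this limit is not given here for these other fits, nor split by direction for any fit. Nothing particular to members is therefore read from these counts or their direction. The smallest adjusted p by edgeR's quasi-likelihood test was 0.474. The median log2 fold change of the members was 0.22, while that of all contigs was 0.01. Leaving out replicate 1 of 18 hpi gave a median of 0.44, leaving out replicate 1 of 24 hpi gave 0.35, and leaving out replicate 3 of 24 hpi gave 0.15. M24 exceeded M18 in 105 members (57.4%) and in 36.5% of contigs in the CPM range. These shares use CPM by library totals, whereas the fold changes above use TMM scaling. Fitted with library totals only, the median log2 fold change was 0.11 for members and −0.09 for all contigs. The median standard error of a member was 0.79 on the log2 scale and that of all contigs 0.30, so a change of 1 on the log2 scale is little more than the error of the median member.

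Of the members that were higher at 24 hpi, DN8621_c0_g1_i1.p1 had the smallest unadjusted p. It had 1.05, 0.482 and 1.28 CPM at 24 hpi, against 0 CPM in all 3 libraries of 18 hpi. These are 10 counts in all, at least 3.24-fold above a floor of 3 counts over the libraries of 18 hpi. The adjusted p was 0.474 by edgeR's quasi-likelihood test, so it was not called. At 0 hpi it had 57.3, 21.5 and 24.5 CPM, so the return was small beside the loss.

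The second was DN17382_c0_g1_i26.p1, from the abundant Trinity gene described above. It had 18.7, 23.4 and 26.2 CPM at 24 hpi, against 15.7, 12.3 and 10.9 CPM at 18 hpi, without overlap between the 2 times. The log2 fold change was 0.92 ± 0.30 (SE, n = 3 libraries per time), with an adjusted p of 0.525 by edgeR's quasi-likelihood test. At 6 hpi the same contig had 30.9, 31.0 and 29.4 CPM, above every library of 18 and 24 hpi. The lowest of its 4 levels was thus at 18 hpi, though the difference to 24 hpi did not pass the test.

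Another, DN12377_c1_g1_i1.p1, was chosen after its values were seen, for its level. It had 43.6, 18.3 and 56.7 CPM at 24 hpi, against 25.6, 2.90 and 10.3 CPM at 18 hpi. Its log2 fold change was 1.77 ± 0.68 (SE, n = 3 libraries per time), with an adjusted p of 0.656 by edgeR's quasi-likelihood test. The libraries of the 2 times overlap, and the level at 24 hpi remained far under the 410.3, 750.3 and 344.3 CPM of 0 hpi. Without replicate 1 of 24 hpi, 1 member passed the call, DN12277_c6_g15_i1.p17, with a log2 fold change of 2.08 and an adjusted p of 0.0422. With all libraries it had 1.58, 3.85 and 8.99 CPM at 24 hpi, against 2.49, 1.85 and 1.03 CPM at 18 hpi, and its adjusted p was 0.613 by the same edgeR test.

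For the contrast that the rule used, 6 against 0 hpi, edgeR called 176 of the 182 tested members lower, beside 5.02% of all contigs tested. This is a description of how the members were chosen. The 6 members that were not called had log2 fold changes of −2.68 to −4.25 with adjusted p of 0.0513 to 0.167 by edgeR's quasi-likelihood test, so a contig can meet the rule without passing that call.

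The fall was also read in libraries that took no part in the choice. The rule was applied with 1 replicate number left out of all 4 time points, and the fall of the contigs so chosen was measured in the libraries left out. Without replicate 1, 167 contigs met the rule, of which 139 are members. Their median fall was 3.63 in the libraries of replicate 1 and 3.62 in the libraries used to choose them. Without replicate 2, 192 met it, with a median fall of 3.52 in replicate 2 and 3.58 in the others. Without replicate 3, 211 met it, with a median fall of 2.97 in replicate 3 and 3.58 in the others. The fall was of about the same size in replicates 1 and 2 when they were not used, and smaller in replicate 3.

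A fall of at least 2.5 in the library pair left out was seen in 140 of the 167 contigs (83.8%) for replicate 1, where 1.63% of all contigs in range had one. For replicate 2 it was seen in 150 of 192 (78.1%), with 1.49% of all contigs, and for replicate 3 in 143 of 211 (67.8%), with 1.40%. The 0 hpi library left out was above its 3 later libraries in 165, 178 and 196 of the contigs chosen without replicates 1, 2 and 3. Among all contigs in range this held for 21.7% with replicate 1, 22% with replicate 2 and 25.2% with replicate 3. Most contigs chosen without a replicate therefore had its highest level at 0 hpi in that replicate too, whereas the depth of the fall varied.

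Before the fall, the 3 libraries of 0 hpi were less alike for members than for contigs in the CPM range. The ratio of the highest to the lowest library at 0 hpi had a median of 2.07 in members and 1.48 in contigs in range with a count in each 0 hpi library. It exceeded 2 in 98 members (53.6%) and in 18.2% of those contigs, and exceeded 5 in 13 members. DN19148_c0_g1_i1.p1, given above, had the largest ratio, 35.1. The rule asks each 0 hpi library to exceed the later ones and sets no limit on their spread. Whether the spread is particular to members was not tested. Of the 48 contigs that fell on, 26 share a Trinity gene with a member. In most of these 26 the ratio at 0 hpi also exceeded 2, though 9 of them are frames of 1 transcript. The 3 libraries were furthest apart in DN17289_c3_g2_i11.p1, with 217.1, 231.8 and 54.5 CPM at 0 hpi. They were closest in DN18177_c2_g1_i2.p2, with 38.0, 46.7 and 44.4 CPM.

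Replicate 3 was the low library. Of the members, 91 were highest in replicate 1, 85 in replicate 2 and 7 in replicate 3, and 126 were lowest in replicate 3. Among contigs in range, 29.9% were highest in replicate 1, 30.5% in replicate 2 and 39.6% in replicate 3. Of the same contigs, 30.1% were lowest in replicate 3. The low replicate 3 is not particular to members. It was also the lowest 0 hpi library in most of the 26 contigs that fell on and share a Trinity gene with a member. The exceptions were DN12277_c6_g3_i1.p7 and DN18177_c2_g1_i2.p2. The median member had 47.5, 47.8 and 29.1 CPM in replicates 1, 2 and 3 of 0 hpi. The 91 members highest in replicate 1 had medians of 60.9, 36.3 and 25.4 CPM in replicates 1, 2 and 3, while the 85 highest in replicate 2 had 43.1, 60.4 and 34.9 CPM. Their median falls were 3.79 and 3.42. The part of surgery, dissection time or leftover tissue in these differences was not tested.

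**Figure D3:**
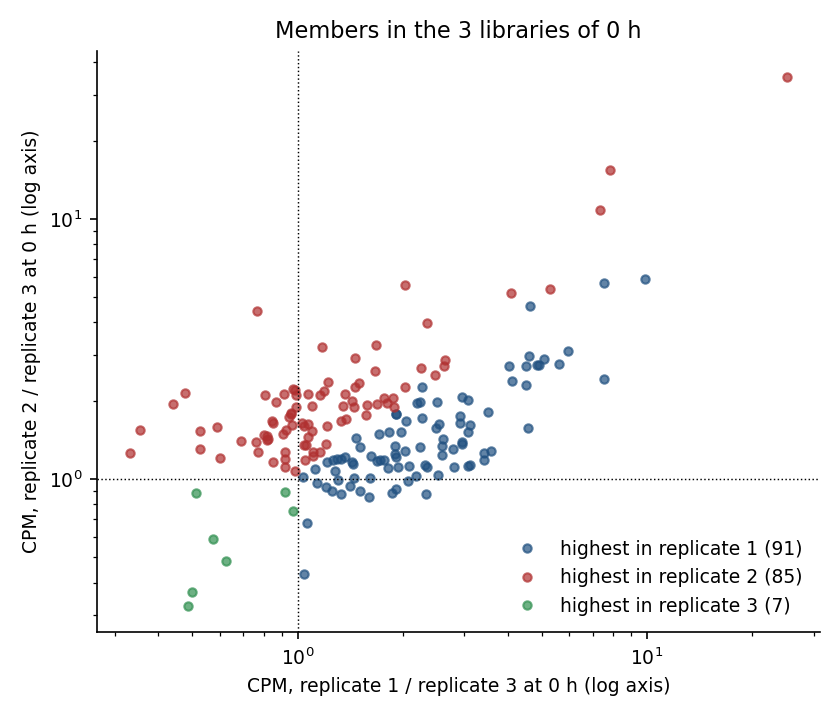
CPM of each member in replicate 2 against replicate 1 of 0 hpi, each divided by replicate 3 (log axes; dotted lines, equal levels). Most points lie above 1 on both axes: 91 members were highest in replicate 1, 85 in replicate 2 and 7 in replicate 3.

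In 28 of the 35 components with 2 or more members, all members were highest in the same 0 hpi library, and 7 components were mixed. This was not compared with other components. As only 7 members were highest in replicate 3, some agreement would arise between unrelated members too. Members of a component can also be frames of 1 transcript or share reads through Kallisto, so they are not separate observations. Of the 9 components with 4 or more members, 6 were uniform and 3 mixed. The components and transcripts named in this and the following paragraphs were chosen after their values were seen. All 7 members of DN17382_c0 were highest in replicate 1, and so were all 4 of DN12377_c4 and all 4 of DN16414_c0. All 8 members of DN11303_c1 were highest in replicate 2. The 4 members of DN12377_c4, summed, had 8.10, 4.59 and 6.68 CPM at 6 hpi, against 642.6, 360.4 and 137.1 CPM at 0 hpi. The 4 of DN16414_c0 had 18.6, 27.9 and 15.6 CPM at 6 hpi, against 821, 782.1 and 621 CPM at 0 hpi. Both components fell to a few percent of their start (1.70% and 2.80% of the mean), although the 0 hpi libraries differed severalfold in one and little in the other. The largest component was 1 of the 3 mixed ones, with 13 of its members highest in replicate 1 and 12 in replicate 2.

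The members are fewer genes than contigs. The 183 come from 150 transcripts, 137 Trinity genes and 92 components. A single component, DN12277_c6, holds 25 members among its 36 contigs, 3 others of which fell on after 6 hpi. DN11303_c1 holds 8 members, DN17382_c0 holds 7 and DN14624_c0 holds 6. The 9 components with 4 or more members hold 67 of the 183, and 57 components hold a single member each. Counts of members are therefore not counts of independent genes.

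A property that the rule did not use is the number of reading frames on the transcript. According to the methods of the study the best frame of each contig was kept, yet 842 of the 32561 rows share their transcript with another frame. Among members 59 (32.2%) lie on transcripts with 2 or more frames in the table, and 2.89% of contigs in the CPM range do. For 3 or more frames the shares are 31 members (16.9%) and 0.401%, and for 5 or more 20 members (10.9%) and 0.135%. Frames numbered 2 or higher by the predictor make up 47 members (25.7%) and 5.88% of contigs in range. These 47 come from transcripts on which a further frame had been predicted.

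The share among members was smaller when each transcript or component was counted once, a count added after the values were seen. Then 26 of 150 member transcripts (17.3%) carried 2 or more frames, beside 1.504% of transcripts in range, and 17 of 92 components (18.5%) held such a transcript, beside 3.67%. The share in range was also smaller per transcript, but not per component. Without DN12277_c6, 25.3% of the remaining 158 members were on such transcripts. The share thus depends on how often 1 transcript is counted and stays above that of contigs in the CPM range in each of these 3 counts. The excess is not particular to members. Of the 48 contigs that fell on, 21 (43.75%) were on such transcripts, a higher share than the 32.2% of members. Counted once, 10 of their 37 transcripts (27.0%) carried 2 or more frames, and 7 of their 25 components (28.0%) held such a transcript. Of the 12 contigs that came back, 0 were on such transcripts. Transcripts with several separate reading frames are usual in bacteria and in mitochondria, and tunicates also have operons; the origin of these transcripts was not tested.

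Frames of 1 transcript mostly fell together, with exceptions. Beside the members, 22 further frames on their transcripts were tested at 6 against 0 hpi, and 20 of them were called lower by edgeR, where 5.02% of all contigs were. The other two were singled out for this. On DN11522_c0_g1_i1 the member fell by 2.84, while the second frame had a fall of 0.28 and a log2 fold change of −0.30 ± 0.25 (SE, n = 3 libraries per time), with an adjusted p of 0.506 by edgeR's quasi-likelihood test. On DN13846_c3_g1_i1 the member fell by 4.25, while the frame p1, under the CPM range, had a fall of 0.67 and an adjusted p of 0.522 by the same edgeR test.

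Of the 23 transcripts with 3 or more frames in the CPM range, 8 carry a member and 15 do not. On the 8 there are 44 frames, of which 30 are members and 14 fell on after 6 hpi, with falls of 2.87 to 5.29. On the other 15 there are 50 frames, with falls of −1.15 to 1.33 and a median of −0.23. No frame of these 23 transcripts lies between the 2 ranges. The 8 transcripts were picked by carrying a member, so the falls of their 30 members are set by the rule, and the 2 groups are a description. The frames of a transcript are not replicates.

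**Figure D4:**
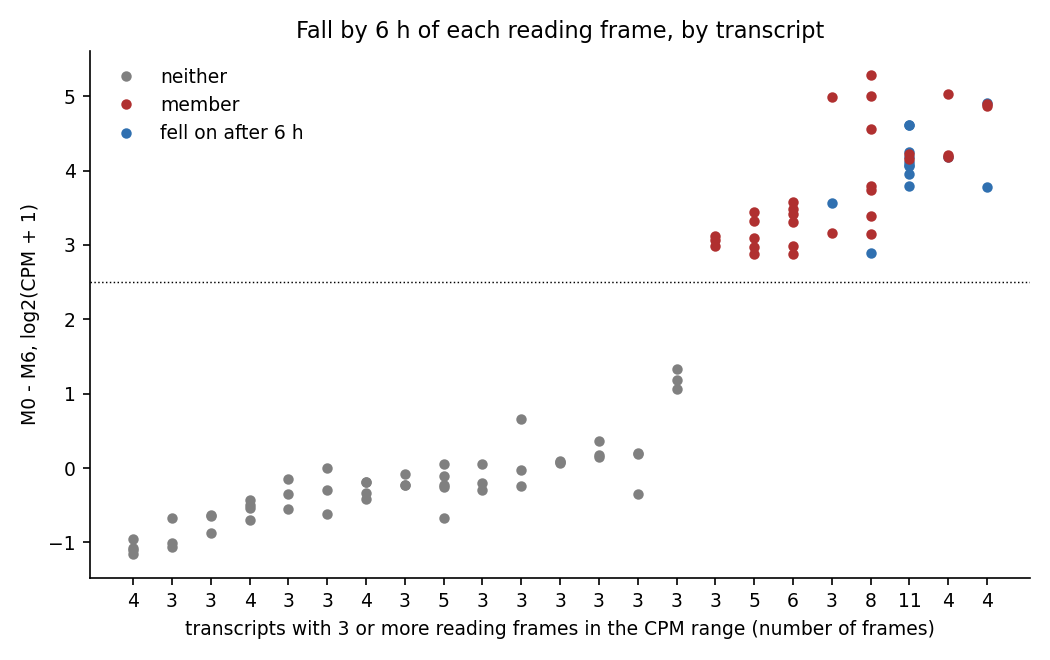
M0 − M6 on the log2(CPM + 1) scale for each reading frame of the 23 transcripts with 3 or more frames in the CPM range, with transcripts ordered by their median and labelled with their number of frames. The 8 transcripts with members (red) have all 44 frames above the dotted limit of 2.5, while the 50 frames of the other 15 end at 1.33.

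The transcript with most frames was DN14624_c0_g1_i3, with 11, of which 2 are members and 9 fell on. Its 11 frames together had 90.4, 27.5 and 42.7 CPM at 6 hpi, against 1999, 861.8 and 702.1 CPM at 0 hpi. At 18 hpi they had 31.9, 7.66 and 5.59 CPM and at 24 hpi 21.9, 6.90 and 20.02 CPM. Replicate 1 was the highest library at all 4 times.

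DN12277_c6_g15_i1 has 6 frames in the table, numbered up to 19, and all 6 are members. Together they had 38.5, 48.0 and 44.6 CPM at 6 hpi, against 391.7, 607.1 and 447.9 CPM at 0 hpi. At 18 hpi they had 33.5, 18.2 and 24.8 CPM and at 24 hpi 28.9, 29.4 and 39.8 CPM. This transcript kept 9.06% of its level at 6 hpi and 6.78% at 24 hpi.

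Within the same component, DN12277_c6_g3_i1 has 8 frames, of which 7 are members. Together they had 16.4, 11.3 and 15.1 CPM at 6 hpi, against 547.8, 295.0 and 257.7 CPM at 0 hpi, which leaves 3.88%. At 18 hpi 1.95% was left and at 24 hpi 1.39%. The transcripts of 1 component thus differed in the level they kept, and their highest 0 hpi library differed as well. DN11303_c1_g1_i1, with 5 frames that are all members, kept 10.8% at 6 hpi and 7.09% at 24 hpi, with 33.6, 50.1 and 44.2 CPM at 6 hpi, against 298.4, 555.2 and 330.7 CPM at 0 hpi.

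Contigs that share a Trinity gene with a member but do not meet the rule give a further reading of the fall. There are 84 such sister contigs, and 79 were tested. At 6 against 0 hpi 48 of them (60.8%) were called lower by edgeR, beside the same 5.02% of all contigs, and 4 were called higher, where 4.65% were. Their median log2 fold change was −2.60, and that of all contigs −0.01. Of the 84, 21 lie under the CPM range and 26 fell on after 6 hpi.

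The sisters fall into 2 kinds. The 22 that are other frames of a member's own transcript, given above, had a median log2 fold change of −4.34. The 57 tested on other transcripts of the gene had a median of −1.98, with 28 (49.1%) called lower and 4 higher. Since Kallisto divides reads between similar contigs, sisters with fractional estimates may share reads with members or with other contigs. Restricted to sisters with whole estimates in every library, 20 of 24 were called lower, but only 6 of the 24 are on other transcripts, of which 3 were called lower.

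All 4 sisters called higher belong to 1 Trinity gene, DN14447_c1_g1. Its member, DN14447_c1_g1_i18.p1, had 0.522, 0.964 and 0 CPM at 6 hpi, against 50.2, 49.4 and 48.4 CPM at 0 hpi, and no count at 24 hpi. The 3 libraries of 0 hpi are nearly equal, unlike those of most members.

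The sister i1.p1 of this gene had 41.7, 22.0 and 44.2 CPM at 6 hpi, against 1.42, 0.381 and 0.792 CPM at 0 hpi. Its log2 fold change was 5.30 ± 0.60 (SE, n = 3 libraries per time), with an adjusted p of 8.76e-05 by edgeR's quasi-likelihood test. For i17.p1 the log2 fold change was 4.52 ± 0.69, for i7.p1 3.12 ± 0.33 and for i9.p1 1.68 ± 0.43 (SE, n = 3 libraries per time). Their adjusted p by the same edgeR test were 0.00156, 1.33e-05 and 0.0178.

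Summed over its 5 contigs, the gene had 180.2, 148.1 and 183.8 CPM at 6 hpi, against 77.7, 60.9 and 68.7 CPM at 0 hpi. It had 79.4, 128.6 and 133.5 CPM at 18 hpi and 276.3, 294.2 and 396.9 CPM at 24 hpi. The member of this gene was thus lost while the sum of its contigs was higher at 6 hpi in every library. All 5 contigs have fractional estimates, so Kallisto's division of reads bears on each of them.

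**Figure D5:**
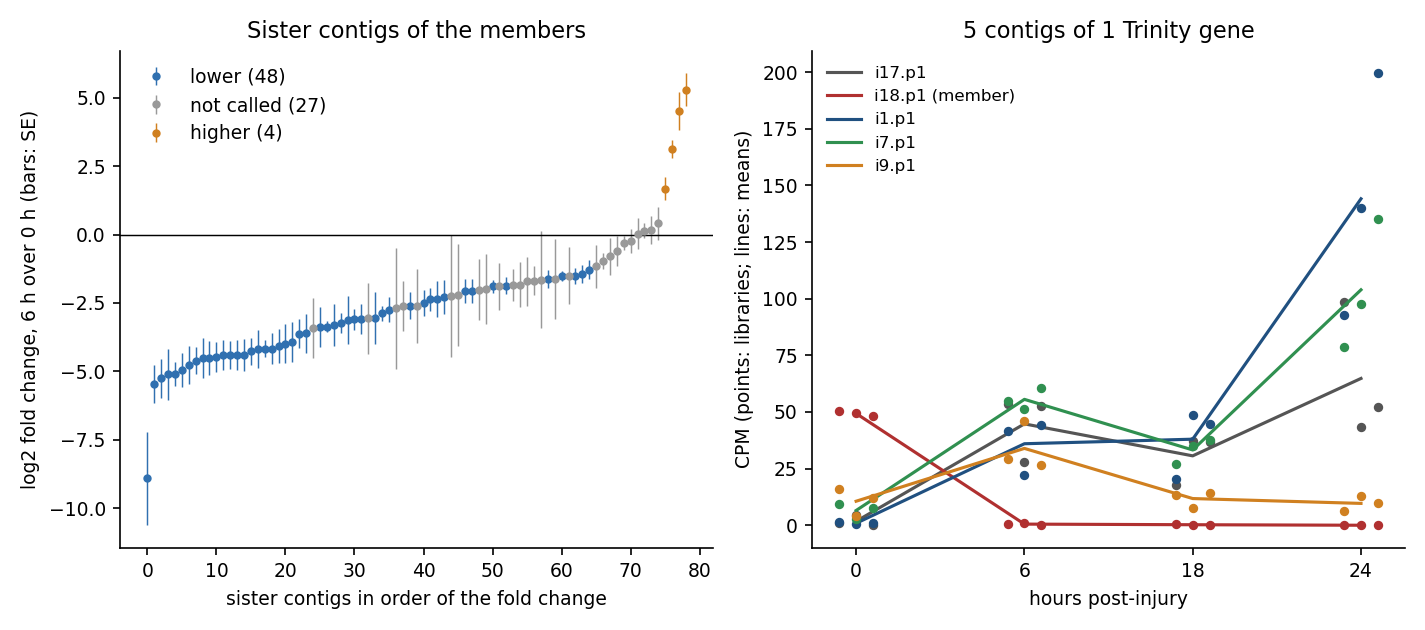
Left, log2 fold change at 6 over 0 hpi (bars, SE) of the 79 tested sister contigs in order of size: 48 were called lower, 27 not called and 4 higher. Right, CPM of the 5 contigs of DN14447_c1_g1 against hours post-injury (points, libraries; lines, means): the member i18.p1 falls to at most 0.964 CPM at 6 hpi and the other 4 are higher there than at 0 hpi.

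Counts were also summed over all contigs of each Trinity gene. For 87 of the 137 genes the member is the only contig, so the sum is the member itself. Of the 50 genes with 2 or more contigs, 34 had a summed fall of at least 2.5 and 21 met the whole rule, and the median summed fall of the 50 was 3.12. The members' own counts are part of these sums. The summed fall was under 1 in 4 genes, DN11522_c0_g1, DN13846_c3_g5, DN14447_c1_g1 and DN15609_c3_g1, with values of 0.58, 0.37, −1.29 and 0.71. In these 4, named because of their values, a contig was lost while the sum of its gene changed far less or was higher.

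Library totals ranged from 2076597 to 3992991 counts with a median of 2927413. One count was therefore worth less than 0.5 CPM in all libraries, and a level of 1 CPM or less rests on at most 4 counts. The lowest total was that of replicate 2 at 24 hpi, in which 141 members had a count, while 135 had one in replicate 3 of 18 hpi and 169 in replicate 1 of 6 hpi. The 3 libraries of 6 hpi had 2397316 to 2693477 counts, against 2949021 to 3992991 at 0 hpi; CPM divides by these totals, and the part of depth in the members' residual levels was not tested.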

How the data were processed

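The authors removed ribosomal reads, trimmed reads with Trimmomatic 0.30, assembled contigs with Trinity, predicted reading frames of at least 90 amino acids with TransDecoder, collapsed similar ones and ran Kallisto 0.43.1. The deposited values are the estimated counts of Kallisto for 32561 contigs in 12 libraries, without normalization or division by length; every column was used. CPM by column sums with a pseudocount of 1 gave the members.

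Estimated counts were rounded and fitted in R 4.3.3 with edgeR 4.0.16 (TMM, filterByExpr on 4 time points, robust quasi-likelihood, all 12 libraries, no covariate), which was tested on simulated data. DESeq2 1.42.0 and limma 3.58.1 served as alternatives, besides other scalings, filters, limits of the rule, a replicate block and single libraries left out. P-values set the differences between time points against the spread between subclones of 1 strain, and do not extend to other genotypes.

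The members and lists were chosen with earlier results of these data known. Named contigs are the members with the largest fall and the highest level at 0 hpi, and the 2 higher at 24 than at 18 hpi with the smallest p; others are marked as chosen after their values were seen. The gene table of the reference assembly matched 0 identifiers and the shortened copy of the study's annotation sheet used here holds only contigs without a match, so no gene names or sequences are given.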

Additional observations from a re-analysis of the deposited data

How the results depend on the processing

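The number of contigs that met the rule was 139 to 211 when single libraries, or a replicate number, were left out. It was 167 to 227 with TMM library sizes, a pseudocount of 0.5 or a smallest fall of 2, and 139 to 142 with a smallest fall of 3 or with whole estimates only. It was 102 with a late difference under 0.5, 110 when counts were summed per Trinity gene and 92 when each component was counted once. Of the 183 members, 180 were kept with TMM library sizes and 157 with the pseudocount of 0.5. Members called at 24 against 18 hpi were 0 to 1 without single libraries and 0 under all 6 other settings. The replicate numbers did not pair the samples (18 correlations of same-numbered deviations from −0.14 to 0.09); with a replicate block in the fit 0 members were called. Members called lower at 6 against 0 hpi were 171 to 180 without single libraries, 157 with limma-voom and 151 of 157 tested without the largest component. Sister contigs called lower were 43 to 52 without single libraries and 28 of 57 tested (49.1%) on transcripts that carry no member. Members on transcripts with 2 or more reading frames were 32.2%, and 17.3% with each transcript counted once, 18.5% with each component counted once and 25.3% without the largest component. These counts, and those per component and per member-free transcript, were chosen after seeing the data. The median falls in replicates left out moved by less than their spread with TMM or a pseudocount of 0.5. The log2 fold changes of the 4 named contigs at 24 against 18 hpi kept their sign in all 17 alternatives run for each, and none was called: the adjusted p was 0.103 or more in 67 of these fits, and DESeq2 gave none for DN8621_c0_g1_i1.p1. The size passed 1 in some of them, up to 1.29 for DN7961_c0_g1_i1.p1 (limma-voom) and 1.11 for DN17382_c0_g1_i26.p1 (without replicate 1 of 24 hpi). Members with few counts after 0 hpi set the limit of what 24 against 18 hpi can show.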
